A study of Mus musculus with 9 samples.

Results

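The 10 genes of purinergic signaling described here are the receptor genes P2rx4, P2rx7, P2ry2, P2ry6, P2ry14, Adora2a, Adora2b and Adora3 and the ectonucleotidase genes Entpd1 and Nt5e. They were listed by name with earlier results of these data known, and are 10 of the 53801 genes counted in each library. All 10 were matched to an Ensembl identifier by symbol, and all 10 passed the filter on low counts in every comparison. RNA came from monocytes/macrophages sorted as CD11c-Ly6G-CD11b+CD45high from C57BL/6J male mice aged 9 weeks, and no transgene or deletion is named for any group. Stroke blood and stroke brain were taken 5 days after a distal middle cerebral artery occlusion (dMCAO), in which the left distal middle cerebral artery and the left common carotid artery were closed for good, and sham blood came from sham-operated mice on a day that is not stated in the sources used here. Each group held 3 libraries. A blood library was 1 mouse, and a brain library was a pool of the ipsilesional hemispheres of 5 mice, so the spread among brain libraries is a spread among pools. Brain cells were released with a tissue dissociation kit on a heated dissociator and spun on Percoll, and blood cells were spun on Ficoll. Tissue and preparation therefore cannot be told apart in any comparison of brain with blood.

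Extracellular ATP and other nucleotides leave stressed and dying cells and act on P2X receptors, which are ion channels opened by ATP, and on P2Y receptors, which couple to G proteins. Ectonucleotidases on the cell surface strip the phosphates in turn: CD39, the product of Entpd1, converts ATP and ADP to AMP, and CD73, the product of Nt5e, converts AMP to adenosine. Adenosine acts on the P1 receptors, of which those encoded by Adora2a and Adora2b raise cyclic AMP (cAMP) and that encoded by Adora3 lowers it. In monocytes and macrophages these receptors are known for sensing dying cells, for inflammasome activation through P2X7 and for dampening inflammatory output through adenosine.

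Promoter sequence of 3 of the genes that differed between brain and blood is shown so that their upstream regions can be read beside their values. RefSeq (GRCm38.p6) windows were found for 8 of the 10 members, and the 250 bases before a transcript start are printed, 5′ to 3′ on the gene's strand. Each printed window lies inside the gene's span, overlaps no annotated exon and so is intronic sequence ahead of an internal start. Capitals mark matches on either strand to 4 motifs: GAGGAA (the core of PU.1-type ETS sites), TGACG (a short form of the cAMP response element), TGANTCA (AP-1) and GGGCGG (the GC box). No match to one motif overlapped a match to another in the printed windows. A match is a run of letters and not a shown binding site.
P2ry2, chr7:101012054-101012303, minus strand: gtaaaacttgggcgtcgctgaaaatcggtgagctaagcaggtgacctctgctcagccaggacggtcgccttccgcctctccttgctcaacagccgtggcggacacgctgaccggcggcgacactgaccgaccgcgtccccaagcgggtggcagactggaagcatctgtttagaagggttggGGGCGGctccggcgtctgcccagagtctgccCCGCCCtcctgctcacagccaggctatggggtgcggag
P2ry14, chr3:59131329-59131578, minus strand: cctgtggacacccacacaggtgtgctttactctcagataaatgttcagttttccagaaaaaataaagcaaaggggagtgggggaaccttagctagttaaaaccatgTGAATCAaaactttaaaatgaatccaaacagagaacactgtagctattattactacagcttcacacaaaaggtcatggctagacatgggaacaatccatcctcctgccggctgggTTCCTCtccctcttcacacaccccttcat
Entpd1, chr19:40659520-40659769, plus strand: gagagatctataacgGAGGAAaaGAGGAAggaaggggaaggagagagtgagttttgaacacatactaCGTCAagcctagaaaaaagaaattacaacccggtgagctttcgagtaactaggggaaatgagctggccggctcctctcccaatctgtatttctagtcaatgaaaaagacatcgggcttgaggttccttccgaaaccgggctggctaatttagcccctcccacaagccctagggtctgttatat

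The printed Entpd1 window held 2 matches to the ETS core and 1 to the short cAMP response element. The printed P2ry14 window held 1 match to the ETS core and 1 to AP-1, and the printed P2ry2 window held 2 GC boxes. Among all 32851 RefSeq windows of this length, 23.3% held the ETS core, 17.8% the short cAMP element, 6.7% AP-1 and 32.7% the GC box. GC content was 65.2% in the printed P2ry2 window, 43.6% in that of P2ry14 and 47.2% in that of Entpd1, against a median of 52.4%. Further windows of these genes overlapped annotated exons and are not printed. The further Entpd1 window, ahead of the gene's start, held 0 matches to the ETS core and 1 to the short cAMP element, at 62.4% GC. The further P2ry2 window held 4 GC boxes, but it overlaps the printed window and 2 of the 4 are the GC boxes printed above. Those of P2ry14 held 1 match to the ETS core each and 0 or 1 to AP-1. The P2ry14 window at 59131119 to 59131368 overlaps the printed one, and its ETS match is the one printed above.

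The libraries held 18475118 to 22623578 counts over genes. Levels are given as CPM, the counts of a gene scaled to the library's total, and 3 counts were worth 0.133 to 0.162 CPM. The 10 monocyte and macrophage markers all had more than 3 counts in every library. Sham blood replicate 1 stood apart from the other sham libraries in platelet markers, whose summed level was 18.1 CPM against 458.7 and 669.8, and in erythroid markers. All 10 microglia markers were higher in brain than in stroke blood and in sham blood, with a summed level of 1547.1, 2257.3 and 4334.0 CPM in brain replicates 1, 2 and 3 and 134.8 to 204.7 CPM in blood. The summed dendritic cell markers reached 658.9 to 857.1 CPM in brain and 95.6 to 340.5 CPM in blood, and Itgax, the gene of the CD11c protein that the sort excluded, was at 78.9 to 141 CPM in brain. Of 7 dendritic cell markers 6 were higher DEGs against stroke blood and 2 against sham blood. Summed border macrophage markers stood at 56.7 to 189.0 CPM in brain and 11 to 25.4 CPM in blood. Of 8 T and NK cell markers 3 were higher DEGs between brain and stroke blood, Il7r among them, and 1 was between brain and sham blood. The sum of the 8 was 381.6 to 808.6 CPM in brain and 136.1 to 527.4 CPM in blood. Of 7 neutrophil markers 3 were higher (Ngp, Camp and Ltf) and 1 lower than in stroke blood, and 2 were higher and 1 lower than in sham blood. Their sums were 651.9 to 1139.8 CPM in brain, 404.4 to 757.1 CPM in stroke blood and 672.2 to 1752.5 CPM in sham blood. Of 6 endothelial markers 2 were higher than in stroke blood, Kdr and Pecam1, and 1 was higher than in sham blood, while Cldn5 had no count in any library. The sum of the 6 was 50.7 to 65.1 CPM in brain and 34.7 to 55.7 CPM in blood. Of 7 neural markers 3 were tested and 1 was higher, Slc1a2, at 0.509 to 0.84 CPM in brain. Their sum was 126.2 to 192.5 CPM in brain and 166.8 to 322.8 CPM in blood. Of the 7, 3 to 4 had more than 3 counts in a brain library, 1 to 3 in sham blood and 2 in stroke blood. The neural sum thus rests on few genes and does not measure neural RNA as a whole. In both comparisons of brain with blood, 6 of 7 platelet markers and 6 of 6 erythroid markers were lower in brain. Of 5 mast cell and basophil markers only 1 was tested in each of these comparisons, and it was not called. Their sum was 4.0 to 8.4 CPM in brain, 0.2 to 2.4 CPM in sham blood and 0.0 to 4.2 CPM in stroke blood. For B cells, 4 of 5 markers were lower in brain than in sham blood and none was called against stroke blood. The part of these cell types in the results on the 10 genes was not tested. In such bulk samples, fewer cells of a type and less RNA per cell cannot be told apart.

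**Figure D1:**
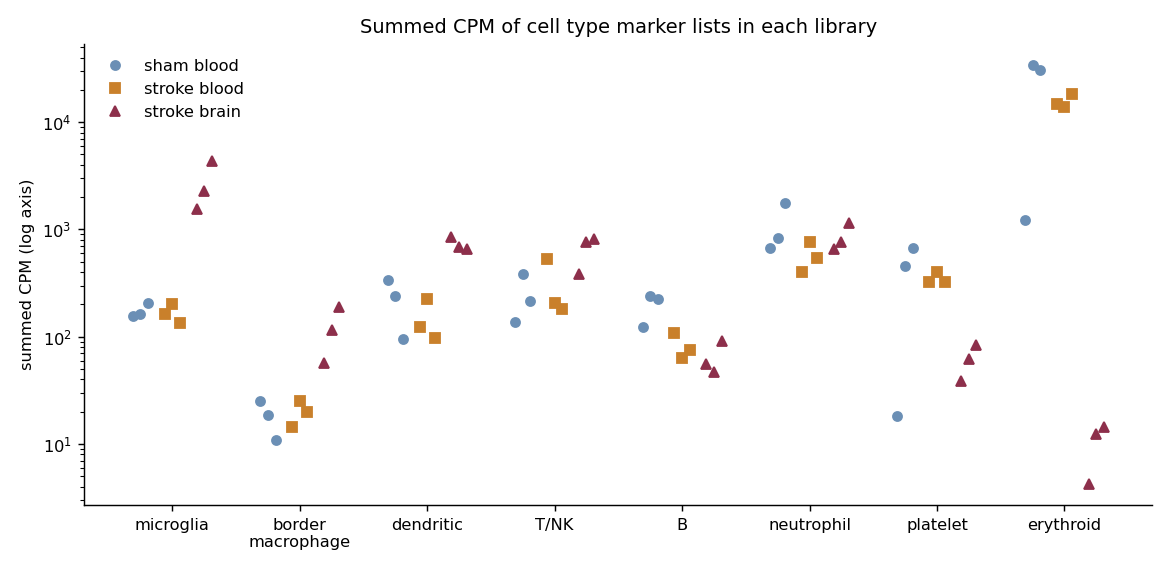
Summed CPM (log axis) of 8 cell type marker lists in each of the 9 libraries, 1 point a library. The brain libraries lie above all blood libraries for microglia, border macrophage and dendritic markers and below them for erythroid markers, and sham blood replicate 1 lies lowest of the sham libraries for platelet markers, at 18.1.

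The first question was how the 10 genes differed between macrophages in the stroke brain and monocytes in the blood of stroke mice. Both ectonucleotidase genes and the receptor genes P2ry2 and P2ry14 were higher in the cells sorted from brain than in those from stroke blood. The 3 adenosine receptor genes and P2rx7 and P2ry6 did not pass the test. A gene was called differentially expressed (a DEG) where its log2 fold change lay beyond 1 in size and its edgeR adjusted p was below 0.05. By this rule 4 of the 10 were DEGs, all of them higher in brain, against 21.0% of the 13189 genes tested in either direction and 13.1% in the higher direction. The median log2 fold change of the 10 was 0.61, against 0.06 over all genes tested. The CPM values of the 2 groups did not overlap for 5 of the 10, all higher in brain, against 49.2% of genes tested in either direction and 31.9% in the higher direction.

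**Figure D2:**
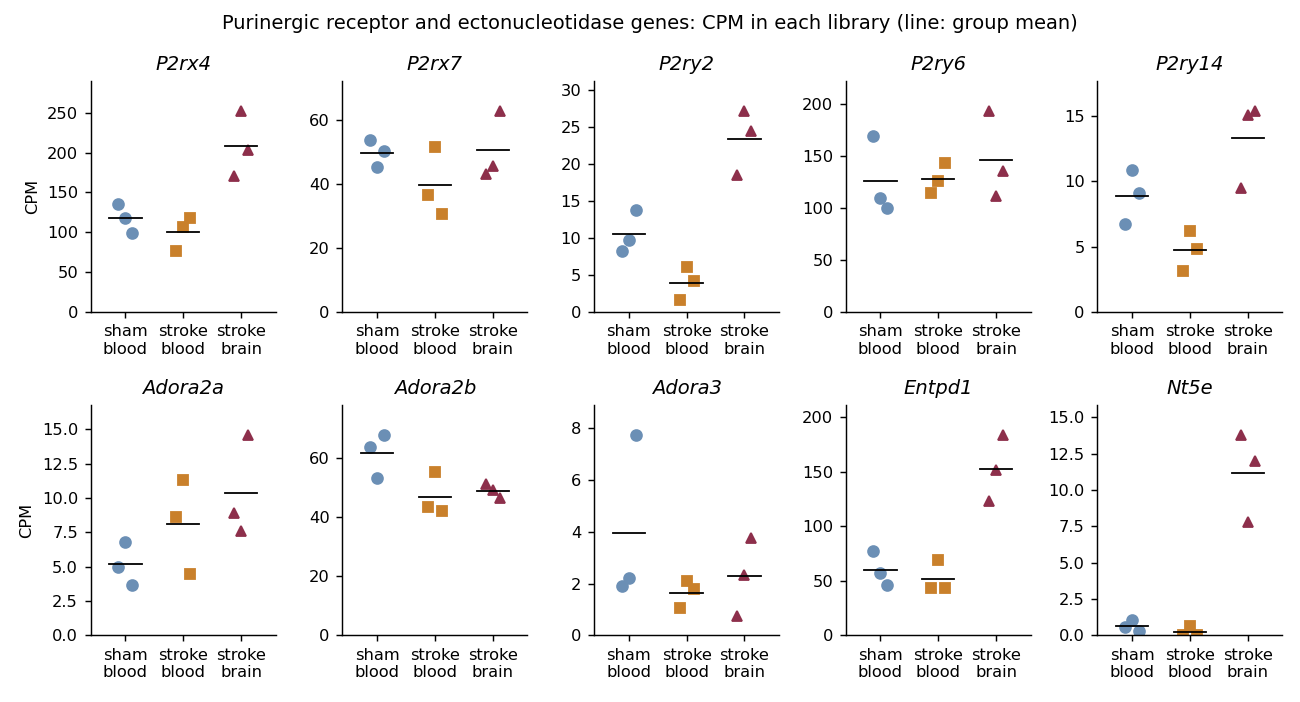
CPM of the 10 genes in each library, with 1 panel a gene, its own axis from 0, 1 point a library and a line at the group mean. For Entpd1, Nt5e, P2ry2 and P2rx4 all 3 brain libraries lie above all 6 blood libraries, and for P2ry6 the 3 groups overlap.

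Compared with sham blood, the cells sorted from brain had higher Entpd1, Nt5e and P2ry2. These 3 of the 10 were DEGs, against 13.4% of the 13020 genes tested in either direction and 9.75% in the higher direction, and the median log2 fold change was 0.59 against 0.01. The groups did not overlap for 6 of the 10, 5 higher and 1 lower in brain, against 41.7% of genes tested in either direction, 27.4% higher and 14.2% lower. The comparisons of brain with the blood groups share the 3 brain libraries and are not independent.

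The comparison of stroke blood with sham blood asked whether circulating cells differed after stroke. None of the 10 was a DEG by edgeR, against 0.00790% of the 12664 genes tested, which is 1 gene (Serpinb10). At an unadjusted p below 0.05 there were 2 of the 10, P2ry2 and P2ry14, and 1581 of all genes, and DESeq2 called 0 of the 10 and 135 of all genes. The median log2 fold change of the 10 was -0.33, against -0.03 over all genes. CPM values did not overlap for 2 of the 10, again P2ry2 and P2ry14, both lower in stroke blood, against 18.7% of genes tested in either direction and 10.5% in the lower direction. This comparison shares libraries with both of the others.

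**Figure D3:**
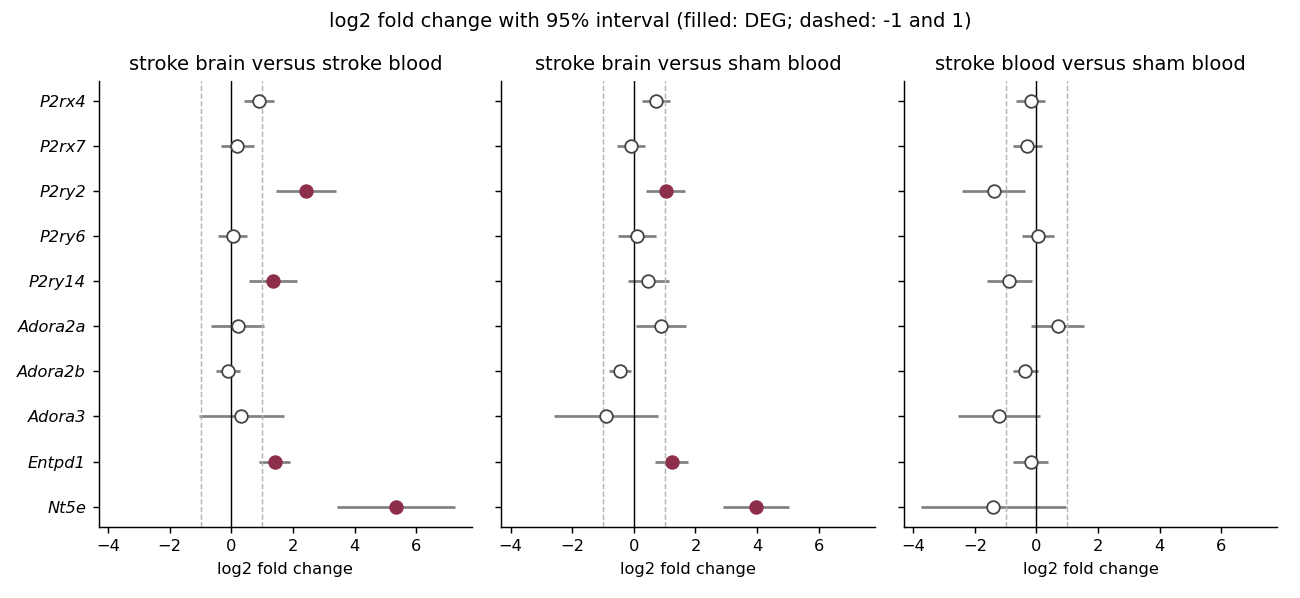
log2 fold change of the 10 genes with its 95% interval from the edgeR fit, in the 3 comparisons. Filled points are DEGs and dashed lines mark -1 and 1; the filled points are P2ry2, P2ry14, Entpd1 and Nt5e in the comparison with stroke blood and P2ry2, Entpd1 and Nt5e in the comparison with sham blood.

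Of the 10 genes Nt5e had the largest log2 fold change in both comparisons of brain with blood. Nt5e (chromosome 9, 88327197 to 88372092, GRCm38, plus strand) had 12, 22 and 6 counts in sham blood replicates 1 to 3, 1, 14 and 0 counts in stroke blood and 258, 177 and 259 counts in stroke brain. In CPM these were 0.584, 1.03 and 0.325 in sham blood, 0.0482, 0.649 and 0 in stroke blood and 13.8, 7.82 and 12 in stroke brain. Every brain library exceeded every blood library, and 2 of the 3 stroke blood libraries were under 3 counts. Between brain and stroke blood the log2 fold change was 5.35 (SE 0.85, 95% interval 3.45 to 7.26, edgeR adjusted p = 0.00173). Stroke blood replicate 2 held 14 of the group's 15 counts. Without it the fitted log2 fold change was 8.29, but this rests on 1 count in stroke blood: brain held 694 counts, a ratio of 432 per library total with a 95% exact interval of 77.4 to 17106 that covers counting error only. Leaving out any other library gave 4.81 to 5.56. Against sham blood it was 3.97 (SE 0.47, adjusted p = 0.00204), and 3.90 without sham blood replicate 1. Stroke blood and sham blood gave -1.39 (SE 1.05, adjusted p = 0.599), a difference that was not detectable at this depth. The fitted value was -4.36 without stroke blood replicate 2 and -1.71 to -0.86 when any other library was left out, with no call.

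Entpd1 (chromosome 19, 40612366 to 40741602, plus strand) stood at 77.5, 57.3 and 46.3 CPM in sham blood, 43.8, 69.0 and 43.6 CPM in stroke blood and 123, 152 and 184 CPM in stroke brain. All 3 brain libraries lay above all 6 blood libraries, and the blood groups overlapped. The brain mean was 153.0 ± 30.5 CPM (SD, n = 3). Entpd1 was 2.64-fold higher in brain than in stroke blood (log2 fold change 1.40, SE 0.23, edgeR adjusted p = 0.00204) and 2.33-fold higher than in sham blood (1.22, SE 0.24, adjusted p = 0.0121). Against sham blood it was 1.45 without sham blood replicate 1. Stroke blood and sham blood differed by -0.18 (SE 0.25, adjusted p = 0.781). The brain libraries stood in the same order for Entpd1 as for the summed microglia markers, lowest in replicate 1 and highest in replicate 3. They also stood in this order for P2ry14 and for P2rx7 and Adora3, which were not DEGs, so the order is not particular to Entpd1. Nt5e was lowest in replicate 2. The part of the microglia markers in these results was not tested.

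Among the P2Y receptor genes, P2ry2 and P2ry14 moved and P2ry6 did not pass the test. P2ry2, which encodes a receptor for ATP and UTP that couples to Gq, lies on chromosome 7 (100996568 to 101012866, minus strand). It was at 8.17, 9.63 and 13.8 CPM in sham blood, 1.54, 6.08 and 4.10 CPM in stroke blood and 18.5, 27.1 and 24.4 CPM in stroke brain. The 3 groups did not overlap, with stroke blood lowest and brain highest. Against sham blood the log2 fold change in brain was 1.03 (SE 0.27, edgeR adjusted p = 0.0334), just past the threshold of 1. Leaving out a single library ended the call for 4 of the 6 libraries (sham blood replicates 1 and 2 and brain replicates 2 and 3), with log2 fold changes of 0.88 to 1.27 over all 6 fits. Against stroke blood it was 2.42 (SE 0.44, adjusted p = 0.0033), and all 6 such fits kept the call, at 2.01 to 2.83. Stroke blood was lower than sham blood by a log2 fold change of -1.39 (SE 0.45), which missed the threshold at an adjusted p of 0.326.

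P2ry14 (chromosome 3, 59113855 to 59153618, minus strand) encodes a receptor for UDP-glucose and other UDP-sugars that couples to Gi. Its levels were 6.76, 10.9 and 9.09 CPM in sham blood, 3.14, 6.17 and 4.80 CPM in stroke blood and 9.49, 15.1 and 15.4 CPM in stroke brain. Brain and sham blood overlapped, and stroke blood lay below both. Brain and stroke blood differed by a log2 fold change of 1.35 (SE 0.34, edgeR adjusted p = 0.0163), with a 95% interval of 0.58 to 2.12. The call was lost without stroke blood replicate 1 (1.10, adjusted p = 0.0619), brain replicate 2 (1.25, adjusted p = 0.0566) or brain replicate 3 (1.24, adjusted p = 0.0594). Against sham blood the difference was 0.47 (SE 0.29, adjusted p = 0.291). Between the blood groups it was -0.88 (SE 0.32, adjusted p = 0.34).

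P2ry6 (chromosome 7, 100937630 to 100974649, minus strand) encodes the UDP receptor known for triggering phagocytosis in microglia. It was at 169, 109 and 100 CPM in sham blood, 114, 126 and 143 CPM in stroke blood and 193, 111 and 135 CPM in stroke brain. The 3 groups overlapped fully. Brain differed from stroke blood by a log2 fold change of 0.04, with a 95% interval of -0.44 to 0.52, and from sham blood by 0.09, with an interval of -0.53 to 0.71. These intervals leave out a change past the threshold of 1 in either direction. The interval between the blood groups was -0.46 to 0.57. The sign of each of these 3 values turned when some single libraries were left out.

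Of the P2X genes, P2rx4 was higher in brain by less than the fold threshold and P2rx7 did not pass the test. P2rx4 (chromosome 5, 122707544 to 122729738, plus strand) encodes an ATP-gated channel found on the surface and in lysosomes of macrophages. Its levels were 135, 118 and 98.4 CPM in sham blood, 76.4, 106 and 118 CPM in stroke blood and 170, 252 and 203 CPM in stroke brain. Every brain library lay above every blood library. Its log2 fold change was 0.90 against stroke blood (SE 0.22, edgeR adjusted p = 0.0125) and 0.71 against sham blood (SE 0.19, adjusted p = 0.0383), so the adjusted p passed in both comparisons and the fold threshold in neither. Against stroke blood it became a DEG without stroke blood replicate 3 (1.03) and without brain replicate 1 (1.04). Scaling by library size alone gave 1.06.

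P2rx7 (chromosome 5, 122643911 to 122691432, plus strand), whose channel opens at high ATP and is known for activating the NLRP3 inflammasome, was at 53.9, 45.4 and 50.3 CPM in sham blood. It was at 36.7, 51.8 and 30.7 CPM in stroke blood and at 43.2, 45.6 and 62.9 CPM in stroke brain. The groups overlapped. The log2 fold change was 0.20 against stroke blood, with a 95% interval of -0.33 to 0.73, and -0.10 against sham blood, with an interval of -0.55 to 0.34. P2rx4 and P2rx7 are neighbours on chromosome 5. Per kilobase of exon, P2rx4 exceeded P2rx7 by a ratio of 2.12, 2.21 and 1.66 in sham blood, 1.77, 1.74 and 3.26 in stroke blood and 3.35, 4.70 and 2.74 in stroke brain. This ratio was chosen after its values were seen and was not tested, and stroke blood replicate 3 lay within the range of the brain libraries.

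None of the 3 adenosine receptor genes was a DEG in any comparison. Adora2b (chromosome 11, 62248984 to 62266453, plus strand), a low-affinity adenosine receptor, was at 63.6, 53.2 and 67.8 CPM in sham blood, 43.3, 55.4 and 42.1 CPM in stroke blood and 51.2, 49.0 and 46.4 CPM in stroke brain. All 3 brain libraries lay below all 3 sham libraries and inside the range of stroke blood. The log2 fold change was -0.46 against sham blood (SE 0.16, edgeR adjusted p = 0.0769) and -0.10 against stroke blood, with an interval of -0.48 to 0.29 and a value of 0.06 when scaled by library size only.

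Adora2a (chromosome 10, 75316877 to 75334784, plus strand), a high-affinity adenosine receptor, was at 5.01, 6.81 and 3.68 CPM in sham blood, 8.59, 11.3 and 4.48 CPM in stroke blood and 8.90, 7.60 and 14.6 CPM in stroke brain. Brain lay above sham blood in every library and overlapped stroke blood. The log2 fold change was 0.89 against sham blood (SE 0.35, edgeR adjusted p = 0.119) and 0.20 against stroke blood, with an interval of -0.67 to 1.08, which does not leave out a change past the threshold.

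Adora3 (chromosome 3, 105870858 to 105908926, plus strand) was at 1.90, 2.21 and 7.74 CPM in sham blood, 1.06, 2.09 and 1.78 CPM in stroke blood and 0.746, 2.34 and 3.75 CPM in stroke brain. Sham blood replicate 3 was the highest and brain replicate 1 the lowest. Its log2 fold change was -0.90 between brain and sham blood (SE 0.73, adjusted p = 0.423) and 0.03 without sham blood replicate 3. The gene shares 779 exon bases on the same strand with Tmigd3, so its counts are uncertain.

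Levels can be compared between genes only per length, here as CPM per kilobase of exon (RPKM). The length counts every annotated exon of a gene, merged over its transcripts, so the order depends on it and not on the transcripts expressed. In sham blood the order was P2ry6 (43.7), Adora2b (33.4), P2rx4 (16.7), Entpd1 (10.8), P2rx7 (8.35), P2ry2 (2.68), Adora2a (1.69), Adora3 (1.06), P2ry14 (0.805) and Nt5e (0.0753), each a mean RPKM over 3 libraries. Neighbours overlapped over libraries for P2ry6 and Adora2b, for Entpd1 and P2rx7 and from P2ry2 down to P2ry14. In stroke brain P2ry6 was again highest, at 50.7 ± 14.7 RPKM (SD, n = 3), and did not overlap the next gene. P2rx4 (29.7), Entpd1 (27.4) and Adora2b (26.5) followed and overlapped each other in that order. P2rx7 (8.47), P2ry2 (5.94) and Adora2a (3.39) came next, of which P2ry2 and Adora2a overlapped. Nt5e (1.30), P2ry14 (1.21) and Adora3 (0.611) closed the brain order and overlapped in sequence. By this measure Entpd1 stood with Adora2b in brain and below it in both blood groups, and Nt5e stayed among the 3 lowest genes in brain.

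**Figure D4:**
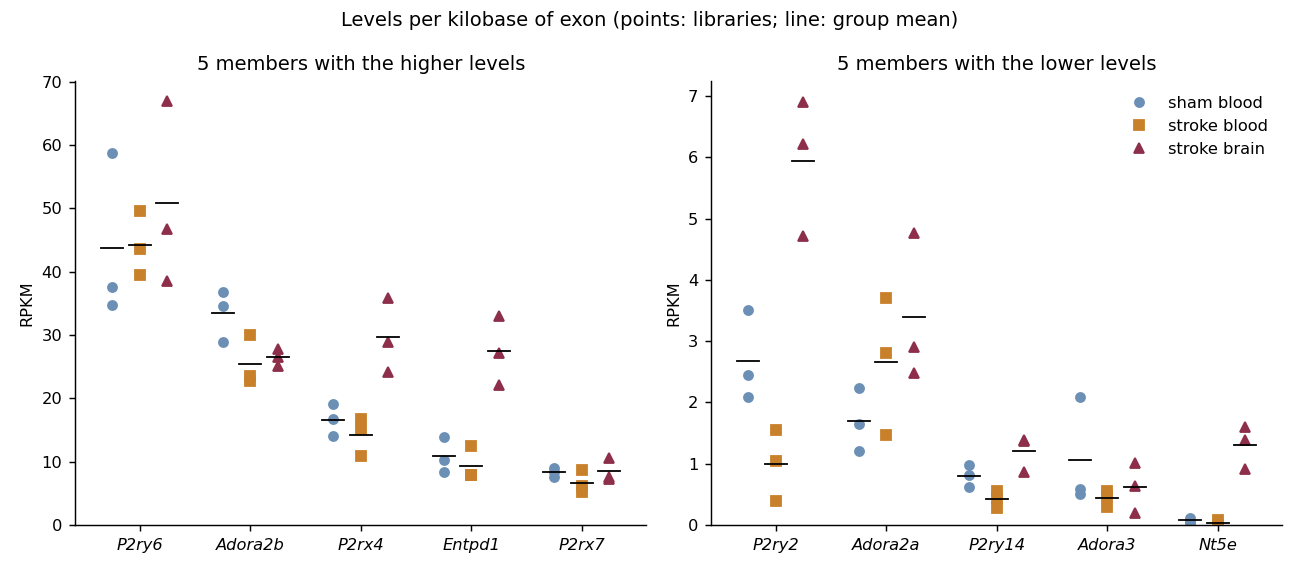
RPKM of the 10 genes by group, with 1 point a library and a line at the group mean, on linear axes from 0 that differ between the panels. P2ry6 has the highest mean in all 3 groups, and Nt5e, near 0 in blood, has a mean of 1.30 RPKM in brain.

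For each member the gene with the most alike profile was the one with the highest Pearson correlation of log2(CPM + 1) over the 9 libraries, among genes with a mean above 3 on that scale. All libraries, groups included, enter the value, so a shared difference between brain and blood raises it, and it is given as a description. Nt5e was most alike to Skil (r = 0.9892) and Entpd1 to Gna15 (r = 0.9874). For P2ry14 it was Cog6 (0.9744), for P2ry2 Vav1 (0.9712) and for P2rx4 Clec4n (0.9635). For P2rx7, P2ry6, Adora2a, Adora2b and Adora3 the most alike genes were Anapc4, Nup153, Ddrgk1, Emilin2 and Acadsb, with r between 0.9355 and 0.9586.

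The remaining P1 and P2 receptor genes numbered 12, of which 6 were tested. Between brain and stroke blood 3 were higher DEGs, 1 was a lower DEG and 2 were not called, with a median log2 fold change of 1.46. Over all genes tested in this comparison, 13.1% were higher DEGs and 21.0% were DEGs in either direction. P2ry12, the ADP receptor that marks microglia, was at 141, 203 and 467 CPM in brain and 17.3, 22.1 and 25.2 CPM in stroke blood (log2 fold change 3.50, SE 0.42, edgeR adjusted p = 0.000431). It was 2.85 without brain replicate 3. P2ry13, a further ADP receptor, was at 72.2, 114 and 234 CPM in brain and 12.5 to 16.7 CPM in stroke blood (3.08, SE 0.40, adjusted p = 0.000602). It was 2.5 without brain replicate 3. Both genes stood in the brain libraries in the order of the summed microglia markers, a list that includes P2ry12, and the part of those cells was not tested.

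P2ry10, named with this family although its known ligand is a lysophospholipid, stood in the opposite order in brain, at 56.9, 23.6 and 17.8 CPM, and at 1.93 to 2.46 CPM in stroke blood. Its log2 fold change was 3.72 (SE 0.45, edgeR adjusted p = 0.000417), and 3.08 without brain replicate 1. Its neighbour in name P2ry10b went the other way, at 14.6, 16.8 and 18.9 CPM in brain and 42.7, 40.8 and 26.1 CPM in stroke blood (-1.27, SE 0.23, adjusted p = 0.00351). P2rx2, P2rx3, P2rx5, P2rx6, P2ry4 and Adora1 were too low to be tested, and P2rx2 and P2ry4 had no count in any library.

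Of 13 further enzyme genes for extracellular nucleotides, 7 were tested. Of these, 3 were higher in brain than in stroke blood, against 13.1% of all genes tested, and none was called lower. Their median log2 fold change was 1.00. Enpp1, which splits ATP to AMP and pyrophosphate, was at 27.1, 18 and 24.2 CPM in brain and 1.83, 1.76 and 1.57 CPM in stroke blood (log2 fold change 3.59, SE 0.28, edgeR adjusted p = 4.3e-05). Cd38, which consumes NAD, was at 20.3, 28.1 and 41.5 CPM in brain and 11.1, 5.33 and 2.81 CPM in stroke blood (2.07, SE 0.46, adjusted p = 0.0092). It was 2.70 without stroke blood replicate 1. Entpd5, a nucleoside diphosphatase of the endoplasmic reticulum, sat at the fold threshold (1.00, SE 0.24) and lost its call in 7 of 10 alternative settings. Compared with sham blood 1 of the 7 was a DEG, Enpp1, against 13.4% of all genes tested.

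Of 6 genes for nucleotide release, 4 were tested and 2 were higher in brain than in stroke blood, against 13.1% of all genes tested. The median log2 fold change of the list was 1.17. Gja1, the connexin 43 gene, was below the level that the rule for naming asked for and was named after its values were seen. It was at 4.0, 4.29 and 1.85 CPM in brain and had 212 counts there against 2 in stroke blood, a ratio of 102 per library total with a 95% exact interval of 28 to 851 for counting error only. Which cells of the brain pools gave the Gja1 counts was not tested. Lrrc8a, a subunit of volume-regulated anion channels, had a log2 fold change of 1.33 (SE 0.39, edgeR adjusted p = 0.0295), lost its call in 4 of 6 fits with 1 library left out (all 3 stroke blood replicates and brain replicate 3, without which it was 0.83) and shares 2853 exon bases with Gm28035. Its means were 13.4 CPM in brain, 13.3 CPM in sham blood and 4.80 CPM in stroke blood. Brain against sham blood gave -0.10 (edgeR adjusted p = 0.884), and stroke blood against sham blood gave -1.43 (adjusted p = 0.285).

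Of 11 genes that carry or convert nucleosides, 8 were tested and 2 were higher in brain than in stroke blood, against 13.1% of all genes tested. The median log2 fold change of the list was 0.92. Dpp4, the CD26 gene whose product binds adenosine deaminase, was at 92.1, 99.7 and 65.6 CPM in brain and 24.5, 40.7 and 19.3 CPM in stroke blood (log2 fold change 1.46, SE 0.28, edgeR adjusted p = 0.00449). Slc29a3, a lysosomal nucleoside transporter, was at 167, 211 and 236 CPM in brain and 78.2, 98.6 and 80.6 CPM in stroke blood (1.10, SE 0.18, adjusted p = 0.002). Its call was lost without brain replicate 3, at 0.99.

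The protein products of the 7 inflammasome genes act after P2X7. Of these genes 1 was a DEG between brain and stroke blood, against 21.0% of all genes tested in either direction and 13.1% in the higher direction. Whether P2X7 was active was not tested. Il1b was at 1710, 1670 and 1340 CPM in brain and 57.3, 93.0 and 127 CPM in stroke blood (log2 fold change 3.93, SE 0.30, edgeR adjusted p = 3.83e-05). The median over the 7 was -0.32, opposite in sign to the one DEG.

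Of 12 G protein and effector genes, 11 were tested and 3 were higher in brain than in stroke blood, against 13.1% of all genes tested. The median log2 fold change of the list was 0.40. Gna15, a Gq family member of blood cells, was at 68.8, 93.6 and 109 CPM in brain and 20.6, 24.5 and 16.8 CPM in stroke blood (log2 fold change 1.98, SE 0.23, edgeR adjusted p = 0.000325). Gnaq gave 1.11 (SE 0.25, adjusted p = 0.00995) and 0.87, with the call lost, without stroke blood replicate 1. Adcy3, an adenylyl cyclase gene, gave 2.31 (SE 0.68, adjusted p = 0.0302), from 4.48 to 8.42 CPM in brain, and lost its call without stroke blood replicate 3, brain replicate 2 or brain replicate 3. For Adcy3 it was 2.94 without stroke blood replicate 1 and 1.75 without stroke blood replicate 2.

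Of 10 genes known to respond to cAMP, 9 were higher in brain than in stroke blood and 9 were higher than in sham blood. Over all genes tested these shares were 13.1% and 9.75%. Against stroke blood the median log2 fold change of the 10 was 3.98, or 3.61 with Vegfa and Il10 set against 3 counts per library of stroke blood. Many of the 10 also answer to other stimuli. Crem, a cAMP response modulator, was at 115, 77.3 and 50.2 CPM in brain and 8.15, 6.12 and 5.18 CPM in stroke blood (log2 fold change 3.48, SE 0.33, edgeR adjusted p = 0.000111). Pde4d, a cAMP phosphodiesterase, was at 4.80, 3.80 and 3.70 CPM in brain (3.28, SE 0.60, adjusted p = 0.0035), and gave 4.07 without stroke blood replicate 3. Thbs1, the thrombospondin 1 gene, was at 3300, 1930 and 1490 CPM in brain and 51.4, 74.2 and 47.8 CPM in stroke blood (5.12, SE 0.34, adjusted p = 2.24e-05). Against sham blood, at a mean of 340 CPM, Thbs1 in brain gave 2.59 (edgeR adjusted p = 0.00417). Stroke blood against sham blood gave -2.52 for Thbs1 (adjusted p = 0.0806), with no overlap of the groups. For all 3 genes brain replicate 1 was the highest library.

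The nuclear receptor genes Nr4a2 and Nr4a3 and the growth factor gene Vegfa leaned on brain replicate 1. Nr4a2 was at 149, 34.5 and 19.3 CPM in brain and 0.772 to 1.35 CPM in stroke blood, with a log2 fold change of 5.74 (SE 0.79, edgeR adjusted p = 0.000825) that was 4.44 without that library. Nr4a3 was at 60.1, 9.19 and 5.97 CPM in brain (4.47, SE 1.02, adjusted p = 0.0098), gave 2.78 without brain replicate 1 and 5.70 without stroke blood replicate 1, and lost its call without stroke blood replicate 2 or 3. Vegfa was at 242, 16.7 and 15.6 CPM in brain and had no count in stroke blood, so it was at least 615-fold higher, or at least 109-fold higher without brain replicate 1, with 3 counts per library as the floor.

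**Figure D5:**
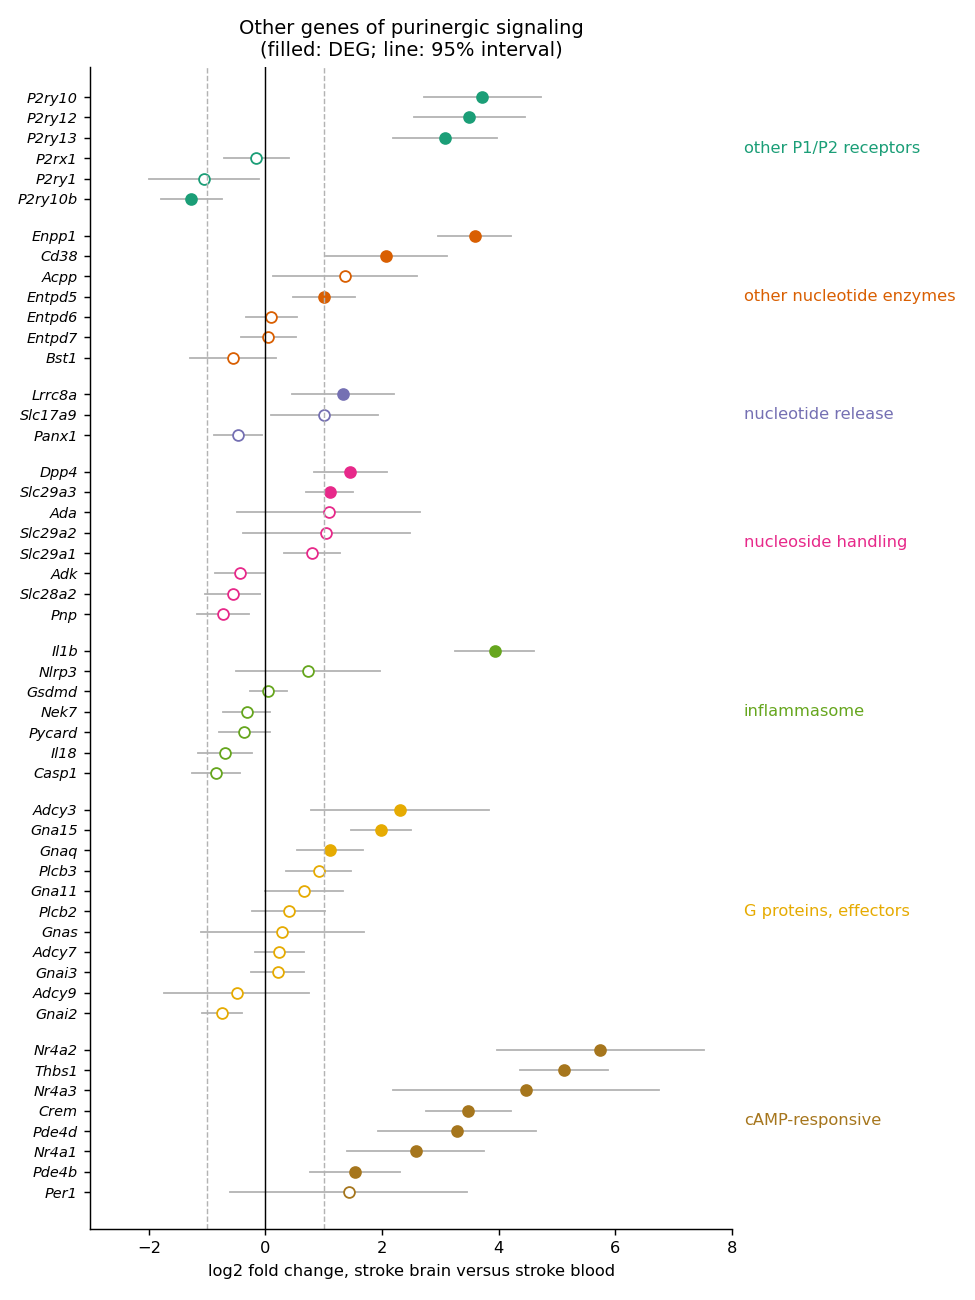
log2 fold change between stroke brain and stroke blood of the tested genes in 7 further lists, with the 95% interval as a line, filled points for DEGs and dashed lines at -1 and 1. Gja1, Vegfa and Il10 are left out because no stroke blood library had more than 3 counts of them; the points furthest right are Nr4a2 and Thbs1 of the cAMP list, and Il1b is the filled point of the inflammasome list.

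Between stroke blood and sham blood 50 genes of these 7 lists were tested and none was a DEG by edgeR. At an unadjusted p below 0.05 there were 7 of the 50, against 1581 of all 12664 genes tested. DESeq2 called 2 of the 50, Lrrc8a and Thbs1, and 135 of all genes. Lrrc8a and Thbs1 were named after this call was seen. In the edgeR fit both were lower in stroke blood, at log2 fold changes of -1.43 and -2.52.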

How the data were processed

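RNA was prepared with SMART-Seq HT and Nextera XT and sequenced paired-end on an Illumina NextSeq. The authors aligned reads with HISAT2 to GRCm38 and deposited HTSeq counts, 1 file per library, as raw counts per Ensembl gene; versions, annotation release and strand setting are not given in the sources used here, so antisense and overlapping genes cannot be told apart. Symbols were matched for 53620 of 53801 identifiers, and exon lengths came from GENCODE M21. Each comparison was fitted on its own 6 libraries with edgeR 4.0.16 (filterByExpr, TMM scaling, quasi-likelihood test, Benjamini-Hochberg adjustment over all genes tested) in R 4.3.3. The scripts were tested on simulated data. CPM is counts divided by the library total, per 1000000. P-values over 3 libraries per group reflect mice in blood and pools in brain. Members, gene lists and tests were chosen with earlier results of these data known. Named genes were all 10 members and, in each other list, at most 6 DEGs in the comparison of brain with stroke blood, or between the blood groups, by absolute log2 fold change among genes with mean log2 CPM above 1; receptor genes too low to test were named without a fold. Serpinb10, Gja1, Il10 and single marker genes were named after their values were seen. Groups follow the labels for tissue and surgery. The sources used here do not tie replicate numbers to animals, or say whether mice that gave stroke blood were among those pooled for brain. Deviations of same-numbered libraries correlated at -0.0702 to 0.0663. Alternatives were DESeq2 1.42.0, other scalings and filters, all 9 libraries in 1 fit, a replicate block, other thresholds and leaving out each library. No library was a duplicate of another in its own group (chi-square per degree of freedom 26.2 to 152 between replicates), and pairs across groups were not compared.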

Additional observations from a re-analysis of the deposited data

How the results depend on the processing

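The count of members called against stroke blood, 4, stayed between 3 and 5 under every alternative, and none was called between the blood groups. Against sham blood 1 member, Nt5e, was left at adjusted p below 0.01, and leaving out 1 library gave 2 to 3. At adjusted p below 0.01 the DEGs among all genes were 1793 against stroke blood, 792 against sham blood and 0 between the blood groups, where DESeq2 gave 135, no filter on low counts 160 and leaving out 1 library 0 to 16, the highest without sham blood replicate 1. Leaving out 1 library gave 1146 to 1883 DEGs against sham blood, the lowest without sham blood replicate 3. Over all members and alternatives 442 values kept their direction and call, 12 lost the call, 5 gained it and 18 turned sign, each in a comparison where that member was not called. Against stroke blood, P2ry6 turned to -0.11 under upper-quartile scaling and ranged from -0.19 to 0.21 with 1 library left out, Adora2b turned to 0.06 with library size only, and Adora2a and Adora3 ranged from -0.13 to 0.46 and from -0.23 to 0.75. Against sham blood, P2rx7 turned to 0.02 with library size only and ranged from -0.30 to 0.01, P2ry6 from -0.15 to 0.38 and Adora3 from -1.47 to 0.03. Between the blood groups, P2ry6 and Entpd1 ranged from -0.09 to 0.34 and from -0.45 to 0.05. The cause was not tested. P2ry2 against sham blood also lost its call under upper-quartile scaling (0.96) and in the fit of all 9 libraries (adjusted p = 0.0969). Scaling by library size only shifted the median of all genes by 0.15 against stroke blood and 0.12 against sham blood, and upper-quartile scaling by -0.15 and -0.07. With the replicate block, 4, 3 and 0 members and 2634, 1571 and 1 genes were DEGs. The numbers were not taken to pair the libraries: no comparison had every library best correlated with its own number. Members under about 1 CPM, as Nt5e in blood, rest on few counts.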
